A study of Mus musculus with 25 samples.

Results

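Transcripts that mark white and red blood cells were followed in mouse Ep5 (EpRas) mammary tumour cells that were exposed to platelets. The set was a named list of 34 gene symbols, kept where a probe set with that symbol alone was present in both deposited value tables. It held 33 genes of the 17491 genes present in both tables, 28 of them leukocyte markers and 5 of them erythroid markers. Where a gene had several such probe sets, the one with the highest mean was used. The other listed symbol, Lyz2, had no probe set of its own on the exon arrays and was followed on the gene arrays only. Globin genes, the usual first markers of red cells, lay on probe sets with several symbols and were not analysed here.

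The EpRas line, mouse mammary epithelial cells transformed with Ras, is labelled C57BL/6, as are the wild-type platelets, which had been isolated by centrifugation. All groups share that line, and the labels name no other engineered allele. On 13 exon arrays the cells were alone (5 arrays), cultured for 24 h with about 1000 platelets per cell (5), or joined with platelets at that ratio immediately before lysis (3, called mixed at lysis here). All lysis arrays carry numbers 4 to 6, whereas the other exon groups also have arrays numbered 1 to 3. On 12 gene arrays the cells were alone, cultured with whole platelets at that ratio for 24 h, or cultured for 24 h with the resuspended pellet or with the releasate of thrombin-treated, centrifuged platelets (3 each). The gene-array titles also carry a run number. Array 8 of each of the platelet, pellet and releasate groups has a run number apart from all other gene arrays, cells alone included. A fit without these arrays was among the other settings. The lysis group addresses which RNAs arrive with the platelets, and the pellet and releasate groups address which platelet fraction acts on the cells. The labels do not say whether arrays of a group come from separate cultures, so p values measure the spread between these arrays.

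Leukocytes share a set of cell-surface, signalling and cytoskeletal proteins, with the phosphatase CD45 (Ptprc) on nearly all white cells, and each lineage adds its own receptors and granule proteins. Red-cell precursors are known by haem synthesis, membrane skeleton proteins and mitochondrial iron import. Platelets have no nucleus and carry RNA from megakaryocytes, which belong to the same blood lineage, so some transcripts used as leukocyte markers are also known in platelets.

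Many myeloid and lymphoid promoters are known to carry the core of the ETS-type binding sequence, the family of the factor PU.1 (Spi1). Stretches of the promoters of Laptm5 and Fcer1g are shown because these genes had the largest differences after mixing at lysis. They run 5′ to 3′ on the gene's strand (RefSeq, GRCm38.p6), with capitals at a match to AGGAAG or its reverse complement CTTCCT. Laptm5 is at chr4:130913265-130913294 (plus strand) and Fcer1g at chr1:171234376-171234405 (minus strand).
Laptm5: ggcagcctgtggCTTCCTcttttttgttct
Fcer1g: ggtctgtagtacAGGAAGgggaaggggcca
The matches begin 39 and 44 bases before the start that the RefSeq promoter table gives. For Fcer1g that start is the gene's own 5′ end, whereas for Laptm5 it lies 426 bases inside the outermost annotated end of the gene. The Laptm5 window holds 2 matches, and the one nearer the start is shown. In the 250 bases before a start, this motif was found on either strand in 29.5% of 32851 promoters and in those of 11 of the 21 set genes with an entry. The erythroid-type GATA motif AGATAA, searched on both strands in the same window, was in 9.99% of all promoters and in those of 7 of the 21 genes. The shares of all promoters are per promoter, whereas the set is counted per gene, and its 21 genes have 24 promoters. The set counts and the shares therefore cannot be compared directly. A match is a description of letters and not of a bound site.

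Array medians lay between 3.62 and 3.90 (log2) for exon arrays and between 5.56 and 5.63 for gene arrays. As a check of the cell label, the mean over 13 epithelial genes (keratins, cadherin, claudins and others) was 9.48 ± 0.08 (SD, n = 5) in cells alone on the exon arrays, far above the array medians. The exon arrays of cells with platelets were uneven: the mean over 31 platelet genes was 5.51 to 5.94 on arrays 1 to 3, 4.87 on array 5 and 4.51 on array 4, against 3.82 to 3.90 in cells alone. The widest gap lay between arrays 1 to 3 and the other two. Calls in the exon platelet group are given also without array 4, the lowest, and for the set genes called against cells alone also by number set. Other differences are given with all arrays unless a value without array 4 stands beside them. On the gene arrays, the platelet descriptions of alone 8 and platelets 9 go against their source names. The platelet list mean was 5.47 on alone 8, against 5.50 and 5.53 on the other arrays of cells alone, and 5.77 on platelets 9, against 5.74 and 5.77 on the other platelet arrays. Both arrays thus lay with their source names, by which they were grouped. In the fit without a block, no set gene was called in any gene-array comparison with or without them.

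In cells alone, 28 of the 33 genes had a mean at or under that of the median gene of each table (log2 of 4.55 for exon and 5.62 for gene arrays). In that range background can set a value, and the tables carry no detection call. The 5 genes above it on the exon arrays were Cd14, Cd68, Itgb2, Rac2 and Slc25a37. On the gene arrays they were Cd14, Cd68, Itgb2, Lcp1 and Slc25a37. After mixing at lysis or culture with platelets, Fcer1g and Laptm5 joined them on the exon arrays, and no gene joined them in any gene-array group.

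**Figure D1:**
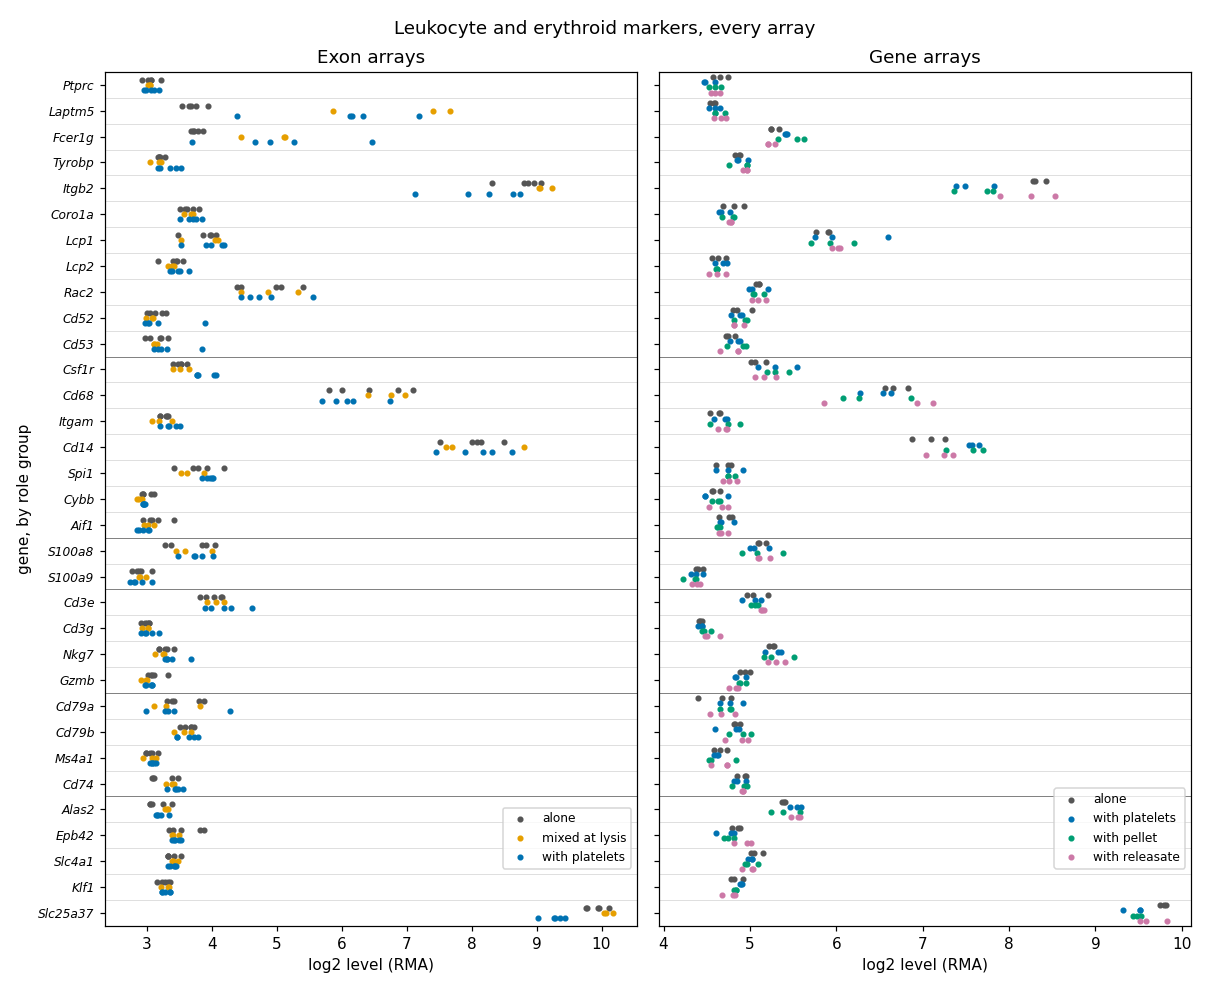
Log2 level (x axis) of each of the 33 genes (rows, by role group, separated by dark lines) on every exon array (left) and gene array (right), 1 point per array, coloured by group. Most genes lie in 1 narrow cluster at a low level, Laptm5 and Fcer1g spread to the right with platelets on the exon arrays only, and Itgb2 and Slc25a37 lie far to the right in every group.

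Mixing at lysis asks which of these RNAs come with the platelets themselves. The outstanding transcript was Laptm5, which encodes a lysosomal membrane protein of blood cells. Its log2 level (probe set 6917393) was 3.94, 3.54, 3.67, 3.64 and 3.75 on the 5 arrays of cells alone. It was 5.86, 7.67 and 7.40 on the 3 lysis arrays. All lysis arrays were above all arrays of cells alone, and the lowest of them, number 4, lay well under the other two. The difference was 3.27 ± 0.52 (SE), a 9.63-fold higher signal, with a limma adjusted p of 0.0649, which misses the threshold of 0.05. Leaving out lysis array 4 gave 3.83 ± 0.51 (adjusted p = 0.0322), and leaving out platelet array 4, which enters only through the shared spread, gave an adjusted p of 0.00408. Of the 13 fits that left out a single array, only 3 passed. Their differences ran from 2.92 to 3.83, and the limma adjusted p from 0.00408 to 0.519. A second Laptm5 probe set (6927841) had means of 3.12 ± 0.35 (SD, n = 5) alone and 5.67 ± 1.03 (n = 3) at lysis, so both probe sets were higher.

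Fcer1g encodes the common gamma chain of Fc receptors, which in platelets also signals for the collagen receptor GPVI. Its log2 level was 3.86, 3.79, 3.71, 3.67 and 3.73 in cells alone and 4.45, 5.12 and 5.11 at lysis. The groups did not overlap, and again lysis array 4 was the lowest. The difference of 1.14 ± 0.44 did not pass (limma adjusted p = 0.945). In a bulk sample, fewer cells of a type and less RNA per cell cannot be told apart.

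For scale, the platelet chemokine Pf4 was 3.33, 3.28, 3.15, 3.36 and 3.13 in cells alone and 8.32, 8.06 and 8.06 at lysis. Its lysis values were close together and far above those of cells alone, a difference of 4.90 (limma adjusted p = 2.04e-06). Ppbp, the other platelet reference, was already 6.215 ± 0.91 (SD, n = 5) in cells alone and was higher by 4.21 at lysis (adjusted p = 0.0166). Of 31 measured platelet genes, 9 rose at lysis, and their median difference was 0.81.

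None of the 33 set genes passed at lysis against alone, where 0.0474% of all 18997 genes passed. At an unadjusted p under 0.05 there were 2 (Laptm5 and Fcer1g), against 3.94% of all genes. The groups were wholly apart for 4 genes, of which 2 lay above cells alone (Laptm5 and Fcer1g) and 2 below (Cybb, a subunit of the phagocyte oxidase, and Gzmb, a cytotoxic granule protease), against 3.31% of all genes that lay apart in either direction. The median difference of the set was −0.01, and that of all genes −0.04. For 31 of the 33 genes the 95% interval of the difference lay within 1 log2 unit of 0 on both sides.

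Ptprc (CD45) was among those. Its log2 level was 3.06, 3.06, 2.92, 3.02 and 3.22 in cells alone and 3.04, 3.02 and 3.04 at lysis. The lysis arrays lay inside the range of cells alone, and the difference was −0.02 with a 95% interval from −0.19 to 0.15. The mean over all 33 set genes was 3.94 to 4.08 on the arrays of cells alone, 4.13 to 4.16 at lysis and 4.07 to 4.20 with platelets, so that the lysis arrays lay wholly above cells alone. With Laptm5 and Fcer1g left out, a choice made after their values were seen, the ranges overlapped, at 3.96 to 4.11, 3.99 to 4.09 and 3.98 to 4.10.

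The remaining general leukocyte markers did not pass at lysis, with differences from −0.09 (Cd52, a surface glycoprotein of lymphocytes) to 0.30 (Itgb2, the CD18 integrin chain). Tyrobp, the DAP12 adaptor that partners many myeloid receptors, differed by −0.05. Lcp2, the SLP-76 adaptor of T cells and platelets, differed by −0.03. Coro1a, an actin-binding coronin, differed by 0.01. Lcp1 (L-plastin), Rac2 (a small GTPase of blood cells) and Cd53 (a tetraspanin) had differences of 0.02, 0.02 and −0.02.

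The lineage markers gave no call at lysis. S100a8, a calcium-binding protein abundant in neutrophils, was 3.85, 3.28, 3.37, 4.05 and 3.91 in cells alone and 4.0, 3.59 and 3.44 at lysis. Cd3e, a chain of the T-cell receptor complex, was 4.03, 3.81, 4.15, 4.14 and 3.91 alone and 4.06, 3.93 and 4.18 at lysis. Cd79a, a signalling chain of the B-cell receptor, was 3.80, 3.41, 3.38, 3.87 and 3.30 alone and 3.81, 3.10 and 3.29 at lysis. In all 3 genes the groups overlapped, with differences of −0.02, 0.05 and −0.15.

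Among the erythroid genes, Alas2, the first enzyme of haem synthesis in red-cell precursors, was 3.38, 3.04, 3.24, 3.04 and 3.07 in cells alone and 3.33, 3.28 and 3.31 at lysis. The groups overlapped, and the difference was 0.15 ± 0.09 (limma adjusted p = 0.945). Epb42 (a membrane skeleton protein), Slc4a1 (the anion exchanger band 3) and Klf1 (an erythroid transcription factor) differed by −0.17, 0.03 and 0.03. Slc25a37 (mitoferrin, which imports iron into mitochondria) was 10.12, 9.76, 9.95, 9.96 and 9.77 alone and 10.07, 10.18 and 10.04 at lysis. Its difference of 0.19 ± 0.11 did not pass either, so no erythroid gene was called at lysis.

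Culture with platelets for 24 h asks what is seen after a day of contact. Against cells alone, 3 of the 33 genes passed, where 4.55% of all genes passed: 2 rose (2.07% of all genes rose) and 1 fell (2.47% fell). Laptm5 and Csf1r rose, and Slc25a37 fell. The median difference of the set was 0.04, and that of all genes was 0.00.

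Laptm5 was 6.15, 6.32, 7.19, 4.39 and 6.12 on the 5 arrays with platelets. Every one was above every array of cells alone, and array 4 was far under the rest. The rise was 2.33 ± 0.45 (limma adjusted p = 0.00913), and 2.74 ± 0.34 without array 4 (adjusted p = 0.00064). Arrays numbered 1 to 3 alone gave 2.84 ± 0.27 (adjusted p = 0.00292), and those numbered 4 and above gave 1.56 ± 0.75 (adjusted p = 0.547). Against cells mixed at lysis the difference was −0.94 ± 0.52, with a 95% interval from −2.07 to 0.18 and a limma adjusted p of 0.473. That difference pools the number sets. Only platelet arrays 4 and 5, at 4.39 and 6.12, share the set of the lysis group, whose mean was 6.975.

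Fcer1g was 4.90, 5.26, 6.47, 3.69 and 4.66 with platelets. Array 4 fell among the cells alone, and array 3 was the highest. The difference from cells alone of 1.24 ± 0.38 did not pass (limma adjusted p = 0.102), but passed without array 4, at 1.57 ± 0.30 (adjusted p = 0.0113). Against the lysis group it was 0.10, with a 95% interval from −0.85 to 1.05. This value pools the number sets as well. The platelet arrays in the set of the lysis group, 4 and 5, were at 3.69 and 4.66, under the lysis mean of 4.89.

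Platelet transcripts varied over the same arrays. Pf4 was 7.75, 7.77, 7.62, 6.49 and 6.98 with platelets, lowest on array 4 as for Laptm5 and Fcer1g. The mean of the platelet list over those arrays was 5.56, 5.51, 5.94, 4.51 and 4.87, highest on array 3 and lowest on array 4, as were both set genes. Whether the amount of platelet RNA on an array sets the level of these genes was not tested.

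**Figure D2:**
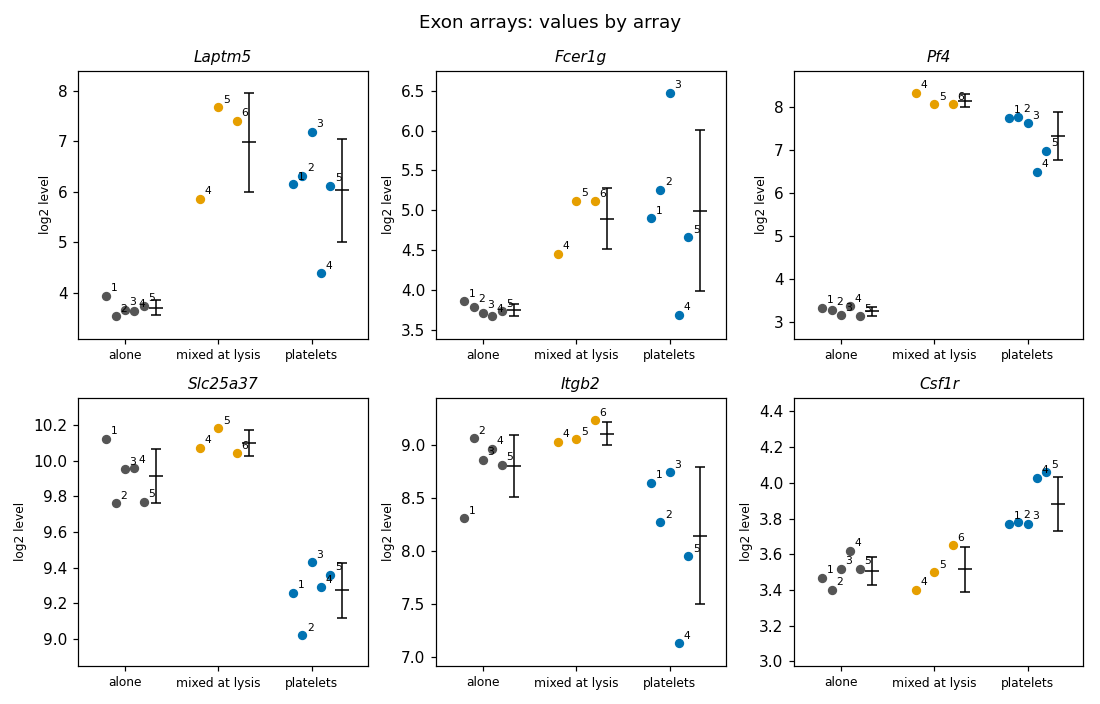
Log2 level on each exon array of 5 set genes and the platelet gene Pf4, by group, with the array's number beside each point and the group mean ± SD as a black bar (y axes differ between panels and span at least 1.5 log2 units). Laptm5, Fcer1g and Pf4 are low in cells alone and higher in both other groups except for Fcer1g on platelet array 4, while Slc25a37 sits lower and Csf1r higher in the cultured group than in both others.

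Csf1r, the receptor for the macrophage growth factor CSF1, had the other rise. It was 3.47, 3.40, 3.52, 3.62 and 3.52 in cells alone, 3.40, 3.50 and 3.65 at lysis, and 3.77, 3.78, 3.77, 4.03 and 4.06 with platelets. All platelet arrays were above all arrays of both other groups, by a small margin. The mean with platelets, 3.88, lay under the median gene (4.54), where background can set a value. The highest values were on arrays 4 and 5, which had the lowest platelet list means. The rise over cells alone was 0.37 ± 0.08 (limma adjusted p = 0.0197). The rise was 0.31 (adjusted p = 0.0624) on arrays numbered 1 to 3 and 0.47 (adjusted p = 0.243) on the rest. Without platelet array 4 it was 0.34 (adjusted p = 0.0425). Leaving out array 2 of cells alone gave 0.35 ± 0.09 (adjusted p = 0.0562). Against the lysis group the difference was 0.36 ± 0.10, just short of the threshold (adjusted p = 0.0564).

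Slc25a37 was 9.26, 9.02, 9.43, 9.29 and 9.36 with platelets. These values lay under all those of cells alone and of cells mixed at lysis. It fell by 0.64 ± 0.09 against alone (limma adjusted p = 0.00114) and by 0.83 ± 0.11 against lysis (adjusted p = 0.000813). Without array 4 both falls were of the same size, 0.64 and 0.83 (adjusted p = 0.00301 and 0.00196). Against alone, arrays numbered 1 to 3 gave −0.71 (adjusted p = 0.0393) and the rest −0.54 (adjusted p = 0.179). It was the 1 set gene called between culture and lysis, where 3.68% of all genes passed. A second, dim probe set of the gene (6820030) had means of 4.13 ± 0.40 (SD) alone, 4.09 ± 0.10 at lysis and 4.0 ± 0.10 with platelets, differences within the spread between arrays. With both probe sets averaged the fall against alone was 0.39 ± 0.09 (adjusted p = 0.0335).

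Itgb2 was 8.31, 9.06, 8.86, 8.96 and 8.81 in cells alone and 9.03, 9.05 and 9.23 at lysis. With platelets it was 8.64, 8.27, 8.74, 7.13 and 7.95, wholly under the lysis group and lowest on array 4. The difference from lysis was −0.96 ± 0.30 (limma adjusted p = 0.128) and that from alone −0.66 ± 0.26 (adjusted p = 0.258), neither past the threshold. Without array 4 the differences were smaller, −0.71 ± 0.21 from lysis (adjusted p = 0.0968) and −0.40 ± 0.18 from alone (adjusted p = 0.344).

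Outside these genes the lineage markers gave no call after culture. Ptprc was 3.11, 2.95, 3.06, 3.19 and 2.98 with platelets, a difference from alone of 0.00 with a 95% interval from −0.15 to 0.15. S100a8 was 3.74, 3.72, 3.84, 4.01 and 3.47, Cd3e was 3.98, 3.89, 4.30, 4.62 and 4.18, and Cd79a was 3.32, 3.42, 3.28, 4.27 and 2.98. Array 4 was the highest of its group in all 3, in contrast to Laptm5 and Fcer1g, and the groups overlapped. Alas2 was 3.17, 3.21, 3.16, 3.34 and 3.14, inside the range of cells alone.

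The other monocyte and macrophage markers differed from cells alone by −0.32 (Cd68, a lysosomal glycoprotein) to 0.15 (Spi1). Itgam, the CD11b integrin chain, differed by 0.10 and Cd14, the co-receptor for bacterial lipopolysaccharide, by 0.05. Cybb differed by −0.04 and Aif1, the macrophage protein Iba1, by −0.19. Of the antigen-presentation and B-cell genes, Cd74, the invariant chain of MHC class II, had the largest difference, 0.22 ± 0.09 (limma adjusted p = 0.254, and 0.192 without array 4). Cd79b and Ms4a1 (CD20) differed by −0.02 and 0.03. The lymphocyte genes Cd3g, Nkg7 and Gzmb differed by 0.04, 0.11 and −0.07, the calprotectin chain S100a9 by −0.03, and none of these passed.

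**Figure D3:**
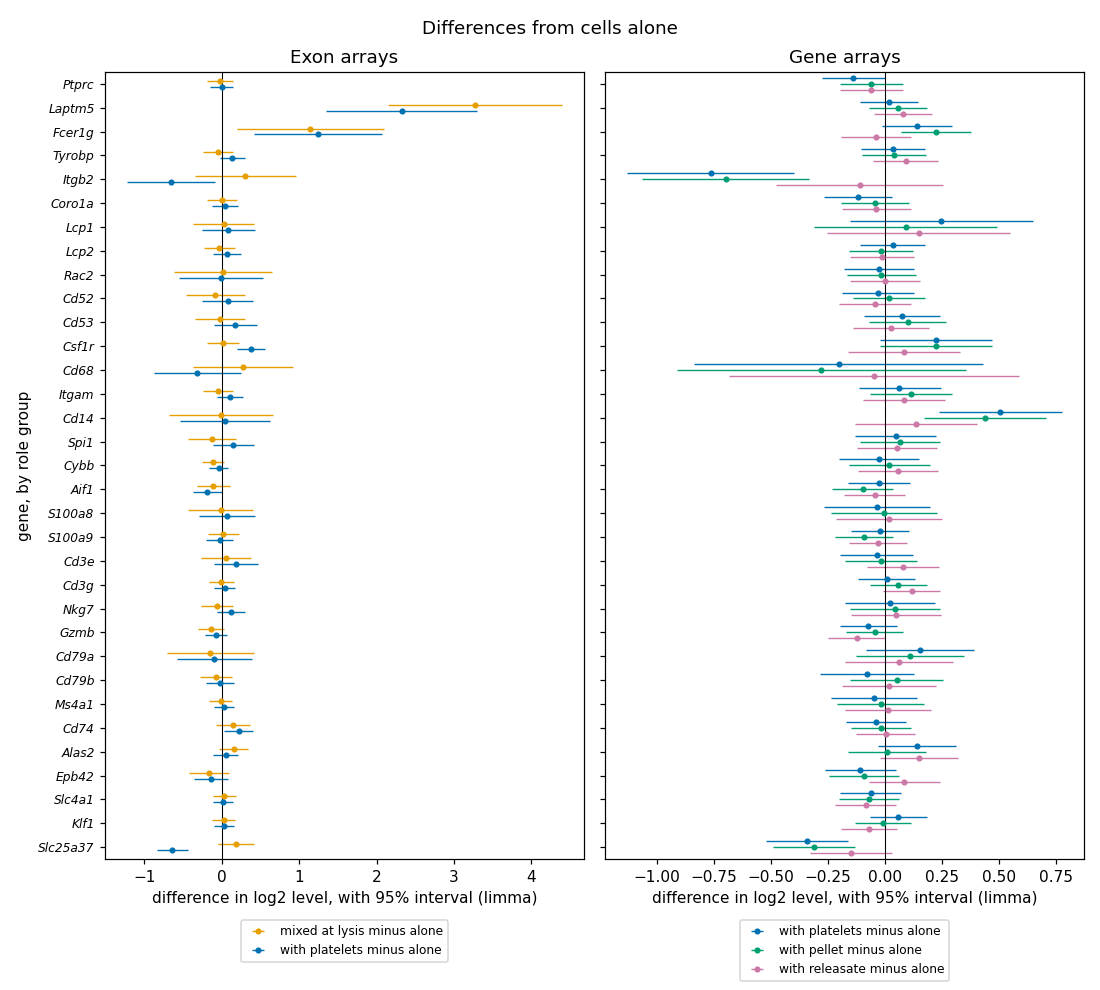
Difference in log2 level from cells alone (x axis, limma estimate with its 95% interval) for each of the 33 genes (rows, by role group), on the exon arrays (left) and the gene arrays (right, a narrower scale). Laptm5 and Fcer1g stand to the right in both exon comparisons, Slc25a37 to the left in cultured cells, and on the gene arrays Itgb2 and Slc25a37 lie to the left and Cd14 to the right with whole platelets and with pellet.

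The gene arrays ask whether whole platelets, their pellet or their releasate carry such a change. Here Laptm5 (1 probe set) was 4.60, 4.58 and 4.54 in cells alone and 4.53, 4.60 and 4.65 with platelets. With pellet it was 4.60, 4.60 and 4.71, and with releasate 4.67, 4.72 and 4.58. The 4 groups overlapped, and the difference with platelets was 0.02 with a 95% interval from −0.11 to 0.15. The exon and gene tables were normalized separately and came from different labelling kits and probes, and no test compared them.

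Some platelet genes were higher with platelets and with pellet on these arrays, which have no lysis group. Whether that signal is RNA carried by the platelets was not tested here. Pf4 was 4.63, 4.78 and 4.83 alone, 6.90, 6.90 and 6.01 with platelets, 5.79, 6.73 and 6.52 with pellet, and 4.78, 4.76 and 4.78 with releasate. It was high with platelets and pellet and close to cells alone with releasate, with differences from alone of 1.86, 1.60 and 0.03 (limma adjusted p = 0.0101, 0.0265 and 1). Ppbp was less clear, at 8.96 ± 1.00 (SD, n = 3) already in cells alone. It differed from alone by 1.42 with platelets and 1.06 with pellet (limma adjusted p = 0.212 and 0.43), and by −1.13 with releasate, without passing. Of 29 platelet genes, 3 rose with platelets and with pellet (Pf4, Clec1b and Cd226 in each).

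None of the 33 genes passed in any of the 6 gene-array comparisons in the fit without a block. That fit leaves the pairing by replicate number out. With that number as a block, Itgb2 and Slc25a37 passed with platelets against alone, where 2.28% of all genes passed. In the fit without a block the shares of all genes were as follows. With platelets against alone, 0.667% of all 19938 genes passed, with pellet against alone 0.416% and with releasate against alone 0.00%. Platelets against releasate gave 0.0451%, pellet against releasate 0.00502% and platelets against pellet 0.00%. At an unadjusted limma p under 0.05 there were 3 set genes with platelets (9.61% of all genes), 4 with pellet (9.63%) and 0 with releasate (2.82%). Platelets against releasate gave 6 (6.62%), pellet against releasate 4 (5.71%) and platelets against pellet 0 (2.52%). The groups did not overlap for 5 set genes with platelets against alone and for 5 with pellet against alone, where 16.1% and 15.9% of all genes lay apart. The median difference from alone was −0.02 with platelets, 0.00 with pellet and 0.02 with releasate.

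Itgb2 was 8.30, 8.43 and 8.28 in cells alone, 7.83, 7.49 and 7.39 with platelets and 7.81, 7.74 and 7.36 with pellet. With releasate it was 8.25, 8.53 and 7.89. The platelet and pellet arrays all lay under those of cells alone and of releasate, which overlapped each other. The difference with platelets was −0.76 ± 0.17 (limma adjusted p = 0.0749) and with pellet −0.70 ± 0.17 (adjusted p = 0.119). Same-numbered arrays of the alone and platelet groups deviated together, and with the replicate number as a block Itgb2 passed with platelets (−0.76 ± 0.12, adjusted p = 0.0109).

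Slc25a37 was 9.75, 9.82 and 9.79 alone, 9.51, 9.51 and 9.32 with platelets, 9.53, 9.48 and 9.43 with pellet, and 9.83, 9.58 and 9.51 with releasate. The platelet and pellet arrays lay under all arrays of cells alone. The releasate arrays overlapped those of pellet and of cells alone. They lay above the platelet arrays, by very little (lowest 9.514 against highest 9.509). The difference with platelets was −0.34 ± 0.08 (limma adjusted p = 0.104), and with the replicate block it passed (adjusted p = 0.0448). With pellet it was −0.31 ± 0.08 (adjusted p = 0.165). Itgb2 and Slc25a37 were the 2 set genes called with the block between platelets and alone, where 2.28% of all genes passed.

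Cd14 was 7.26, 7.10 and 6.88 in cells alone, 7.65, 7.54 and 7.57 with platelets, 7.27, 7.58 and 7.70 with pellet, and 7.35, 7.25 and 7.04 with releasate. All platelet and pellet arrays were above those of cells alone, the lowest pellet array by very little. The differences of 0.51 ± 0.12 and 0.44 ± 0.12 did not pass (limma adjusted p = 0.103 and 0.194). On the exon arrays Cd14 was 8.0, 8.15, 8.08, 8.50 and 7.51 alone and 8.32, 8.62, 7.90, 8.18 and 7.45 with platelets, groups that overlapped throughout.

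**Figure D4:**
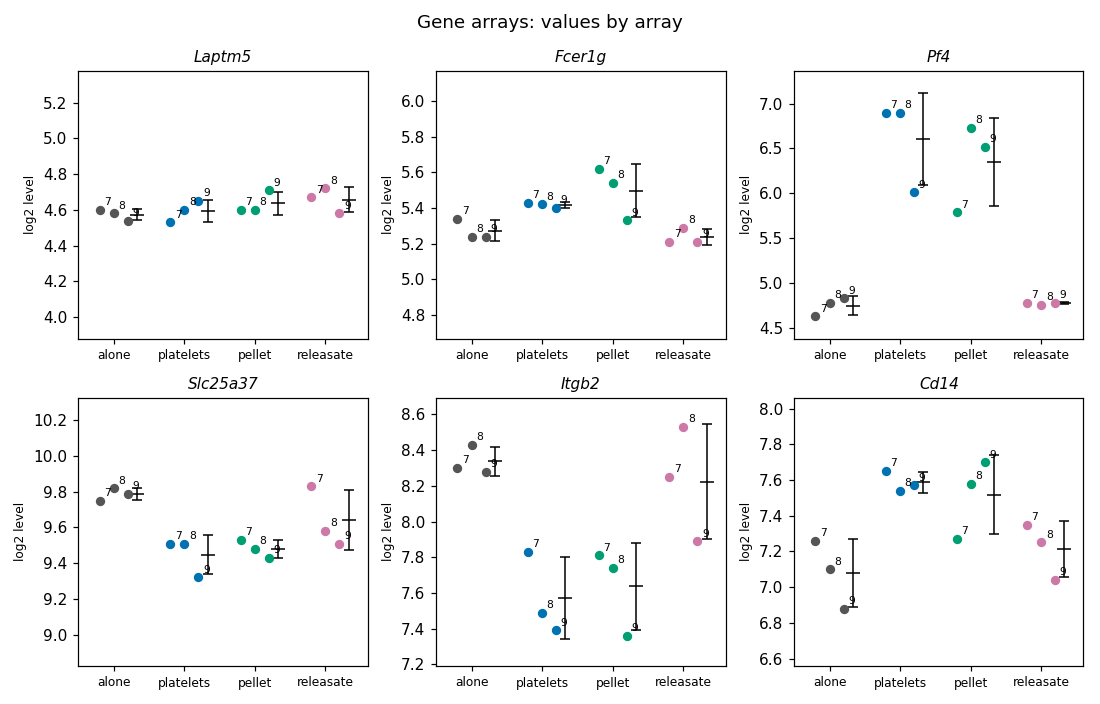
Log2 level on each gene array of 5 set genes and the platelet gene Pf4, by group, with the array's number beside each point and the group mean ± SD as a black bar (y axes differ between panels and span at least 1.5 log2 units). Pf4 is high with platelets and pellet while Laptm5 is level, and Itgb2 and Slc25a37 sit lower, and Cd14 higher, with platelets and pellet than in cells alone.

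Fcer1g was 5.34, 5.24 and 5.24 alone, 5.43, 5.42 and 5.40 with platelets, 5.62, 5.54 and 5.33 with pellet, and 5.21, 5.29 and 5.21 with releasate. It was slightly above cells alone on all platelet arrays, by 0.14 ± 0.07 (limma adjusted p = 0.57), and on 2 of 3 pellet arrays, by 0.22 ± 0.07 (adjusted p = 0.265). Csf1r was 5.18, 5.06 and 5.01 alone, 5.29, 5.09 and 5.55 with platelets, 5.20, 5.29 and 5.45 with pellet, and 5.06, 5.16 and 5.30 with releasate. The groups of Csf1r overlapped between alone and platelets, and the difference was 0.22 ± 0.11 (adjusted p = 0.577).

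The defining lineage genes did not pass here either. Ptprc was 4.74, 4.57 and 4.65 alone, 4.47, 4.60 and 4.48 with platelets, 4.67, 4.59 and 4.53 with pellet and 4.59, 4.65 and 4.55 with releasate. Lyz2, the lysozyme of macrophages and granulocytes, was 4.57, 4.63 and 4.43 alone, 4.53, 4.70 and 4.65 with platelets, 4.42, 4.92 and 4.59 with pellet and 4.35, 4.60 and 4.72 with releasate. Both genes overlapped between all groups, with differences from alone of −0.14 and 0.08 with platelets.

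S100a8 was 5.18, 5.11 and 5.09 alone and 5.22, 5.0 and 5.05 with platelets, and its pellet and releasate arrays ran from 4.91 to 5.38. Cd3e was 4.96, 5.03 and 5.21 alone and 4.91, 5.06 and 5.13 with platelets, and from 5.01 to 5.16 in the other 2 groups. Cd79a was 4.40, 4.78 and 4.68 alone and 4.65, 4.92 and 4.77 with platelets, and from 4.54 to 4.83 in the others. All 3 overlapped between alone and platelets. Alas2 was 5.39, 5.37 and 5.40 alone, 5.59, 5.46 and 5.54 with platelets, 5.58, 5.24 and 5.38 with pellet and 5.58, 5.56 and 5.48 with releasate. Its platelet and releasate arrays lay above cells alone by 0.14 and 0.15, without passing (limma adjusted p = 0.638 and 1).

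Further leukocyte genes of the same lineages, 111 of them in the exon table and 118 in the gene table, were counted in the same fits. At lysis 0 of 111 passed by limma, with 2 (1.80%) at an unadjusted p under 0.05, against 3.94% of all genes. In cultured cells there were 3 rises and 3 falls relative to cells alone (5.41%, against 4.55% of all genes), and 1 rise and 3 falls relative to lysis (3.60%, against 3.68%). Without platelet array 4 these were 4 rises and 2 falls relative to alone (5.41%, against 4.45% of all genes). Relative to lysis they were 2 rises and 3 falls (4.50%, against 3.81%). At lysis against alone 1 gene, Cd84, passed (0.901%, against 0.0737%). The rise over alone that this added was Arhgdib, at 1.33 (limma adjusted p = 0.0261). With all arrays Arhgdib was higher by 1.13 with platelets (adjusted p = 0.0664) and by 0.72 at lysis (adjusted p = 0.945), without passing. On the gene arrays 0 of 118 passed in each of the 6 comparisons. At an unadjusted p under 0.05 there were 12 of the 118 with platelets (9.61% of all genes), 13 with pellet (9.63%) and 3 with releasate (2.82%). After culture and on the gene arrays these shares lie near those of all genes and are no result about leukocyte genes as a group. Their median difference from alone on the exon arrays was −0.03 at lysis and 0.02 with platelets.

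The 6 genes behind the exon counts with all arrays are given as single genes, and Cd84 and Lsp1 among them were singled out after their values were seen. Sla, an adaptor that dampens antigen receptor signals, had means of 3.36 ± 0.12 (SD, n = 5) alone, 3.46 ± 0.09 (n = 3) at lysis and 4.34 ± 0.22 (n = 5) with platelets. Its rise over alone was 0.97 (limma adjusted p = 0.000122), and 1.06 without array 4 (adjusted p = 3.1e-05). Cd84, a SLAM-family receptor also known on platelets, was 3.42 ± 0.15, 4.17 ± 0.14 and 4.08 ± 0.24 in the same order, a rise of 0.66 with platelets (adjusted p = 0.00461). Without array 4 this rise was 0.75 (adjusted p = 0.00103). At lysis Cd84 was higher by 0.75 without passing (adjusted p = 0.141), and the same difference passed once platelet array 4 was left out of the shared spread (adjusted p = 0.0291). Lsp1, an actin-binding protein of leukocytes, was 0.52 higher with platelets (adjusted p = 0.0178), and 0.61 without array 4 (adjusted p = 0.00238). Against lysis, Sla, Cd84 and Lsp1 differed by 0.88, −0.09 and 0.43 (limma adjusted p = 0.00119, 0.825 and 0.103). Without array 4, Sla and Lsp1 passed there and Cd84 did not. The means of Sla and Cd84 with platelets lay under the median gene (4.54), where background can set a value. On the gene arrays with platelets against alone, Sla, Cd84 and Lsp1 differed by 0.10, 0.11 and 0.39 (limma adjusted p = 0.802, 0.695 and 0.239).

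Mcpt8, a protease of basophils, fell from 8.01 ± 0.46 (SD, n = 5) alone and 7.68 ± 0.78 (n = 3) at lysis to 5.25 ± 0.56 (n = 5) with platelets. Against alone it fell by 2.76 on the log2 scale (limma adjusted p = 0.000299), with a difference of −2.72 without array 4 (adjusted p = 0.00109). Blnk, a B-cell linker protein, fell by 1.06 (adjusted p = 0.0191), with −1.05 without array 4 (adjusted p = 0.0418). The phosphatase Ptpn6 (SHP-1) fell by 0.65 (adjusted p = 0.0274). Without array 4 its difference was −0.57 and no longer passed (adjusted p = 0.061). Against lysis, Mcpt8, Blnk and Ptpn6 differed by −2.43, −1.42 and −0.93 (limma adjusted p = 0.00293, 0.00954 and 0.0101). Each of these passed there without array 4 too. The means of Blnk and Ptpn6 in cells alone were 9.20 and 8.42, so all 3 probe sets gave signal in the tumour cells without platelets. On the gene arrays with platelets against alone, Mcpt8, Blnk and Ptpn6 differed by −1.87, −0.46 and −0.16 (limma adjusted p = 0.0938, 0.388 and 0.756).

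Of 29 further erythroid genes on the exon arrays, 0 passed at lysis by limma, and 0 had an unadjusted p under 0.05. With platelets against alone, 1 rose and 1 fell (6.90%, against 4.55% of all genes). Without array 4, 1 rose and 2 fell (10.3%, against 4.45%), the added fall being Bcl2l1 (−0.91, limma adjusted p = 0.0373). With platelets against lysis, 1 fell (3.45%, against 3.68%). Without array 4, 2 fell there (6.90%, against 3.81%), again with Bcl2l1 added. Add2, an adducin of the membrane skeleton singled out after its values were seen, rose by 0.66 (limma adjusted p = 0.00154), and by 0.68 without array 4 (adjusted p = 0.00325). Car2, carbonic anhydrase 2, fell by 1.10 (adjusted p = 0.0301), with −1.24 without array 4 (adjusted p = 0.0177). Against lysis Car2 fell by 1.68 (adjusted p = 0.00697), with −1.82 without array 4 (adjusted p = 0.0049). The mean over the 29 genes ran from 5.47 to 5.51 alone, 5.49 to 5.51 at lysis and 5.31 to 5.43 with platelets. The mean of Add2 with platelets, 4.375, lay under the median gene (4.54), where background can set a value. On the gene arrays with platelets against alone, Add2 and Car2 differed by −0.01 and −0.35 (limma adjusted p = 0.99 and 0.413).

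Of 8 transcription factors of the erythroid and megakaryocyte lineages, 1 was called with platelets against alone, where 4.55% of all genes passed. It was Runx1, also singled out after its values were seen, higher by 0.58 (limma adjusted p = 0.0359). Without array 4 its difference was 0.51 and did not pass (adjusted p = 0.0795), which left 0 of the 8. The Runx1 difference on the gene arrays with platelets against alone was 0.09 (limma adjusted p = 0.955). On the gene arrays 0 of 30 further erythroid genes passed with platelets against alone, with 4 (13.3%) at an unadjusted p under 0.05, against 9.61% of all genes.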

How the data were processed

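Log2 values were deposited by the authors for 13 exon arrays and 12 gene arrays, made per the submitters' processing notes with RMA in Partek 6.4 and Partek 6.5 respectively. Per the labels' protocols, the exon arrays were labelled with the Affymetrix WT Sense kit and the gene arrays with the Nugen Applause kit. Background and summary options are not given in the sources used here. Probe sets were named from the platform annotation. Of 44343 exon-array probe sets 22781 have 1 symbol, 2085 several and 19477 none, and of 35556 on the gene arrays 21789, 1621 and 12146. This gave 18997 and 19938 genes.

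Each table was fitted alone with limma 3.58.1 in R 4.3.3 (lmFit, eBayes), all its groups together, with Benjamini-Hochberg adjustment over all genes and a threshold of 0.05. The fitting step was tested on simulated data. Groups follow the source names. Tables and figures used Python 3.11.15, pandas 2.3.3 and matplotlib 3.10.9.

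Correlations of same-numbered arrays, taken over deviations from the group means, were 0.287 to 0.442 (alone and platelets) and 0.292 to 0.381 (alone and releasate) on the gene arrays, all over 0.1, so the numbers were taken to pair these arrays. In other comparisons not all were. Counts and p values on the gene arrays are from the fit without a block unless another setting is named, and so leave this pairing out.

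The genes and comparison lists were chosen with earlier results of these data known. Values of every array are given for genes called in any comparison, the 3 with the largest difference at lysis, and Ptprc, Lyz2, S100a8, Cd3e, Cd79a and Alas2. Cd14 was added to these after its values were seen, and the other set genes are given by their differences. Of the companion lists, the leukocyte, erythroid and factor genes called on the exon arrays with platelets against alone are named. Those called only without platelet array 4 are named too. Of the platelet genes, Pf4 and Ppbp are given as references and the genes called on the gene arrays against alone are named. Other called platelet genes and the called epithelial genes are not named. The alternatives were other normalizations, probe set choice, variance settings, blocks, number sets, filters and leaving out arrays. For the companion genes, leaving out exon platelet array 4 was chosen after seeing the data. Arrays carry no read depth, and their number limits the precision.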

Additional observations from a re-analysis of the deposited data

How the results depend on the processing

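Counts of set genes past the threshold (limma) were recomputed under up to 38 other settings. The shares of all genes called are not given beside most of these counts. Without platelets 4, 0.0737% of all genes passed at lysis against alone, 4.45% for culture against alone and 3.81% for culture against lysis. With the replicate block, 2.28% passed for platelets against alone on the gene arrays. A setting can change calls among all genes, so a changed count is no result about the set as a group. At lysis against alone the count of 0 became 1 (Laptm5) with array weights, with only the 2 groups in the fit, with an intensity trend and with only genes above the median mean, and ranged from 0 to 1 when leaving out single arrays (1 without platelets 3, platelets 4 or lysis 4). For culture against alone the count of 3 became 0 with only numbers 4 to 6, and ranged from 2 to 4 when leaving out single arrays, losing Csf1r without alone 2 and gaining Fcer1g without platelets 4. For culture against lysis the count of 1 became 5 with array weights (Csf1r, Itgam, Itgb2, Laptm5, Slc25a37), 0 with only numbers 4 to 6, and 2 (Csf1r added) with an intensity trend, with the number sets as a block and with the replicate block. Leaving out single arrays kept it at 1, Slc25a37 each time. On the gene arrays, platelets against alone went from 0 to 3 with array weights (Cd14, Itgb2, Slc25a37), to 2 with the replicate block, and from 0 to 1 when leaving out single arrays (Cd14 without pellet 7, Slc25a37 without releasate 7, Itgb2 without releasate 9). Pellet against alone went from 0 to 3 with array weights (the same genes) and to 1 with the replicate block (Itgb2). The other 4 gene-array comparisons stayed at 0 throughout, and no called difference turned its sign. Of the 33 genes, 26 passed in no comparison under any setting and 7 passed in at least 1. The replicate block changed no other call. Exon correlations between same-numbered arrays of alone and platelets ran from −0.255 to 0.583, so the numbers there were not taken as pairs. The fits with fewer arrays have less power by construction, and otherwise the cause of a change was not tested. Signals near background limit what a missing call can show.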
